A study of Mus musculus with 8 samples.

Results

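The genes described here are 37 glutamate receptor subunits and scaffold proteins of the postsynaptic density, chosen by name from the 54752 gene models in the count tables. They comprise 4 AMPA receptor subunits, 1 delta subunit, 5 kainate subunits, 6 NMDA subunits, 6 metabotropic receptors and 15 scaffold or associated proteins. RNA from the right cerebral cortex of wild-type C57BL/6 mice, taken 3 weeks after surgery, was sequenced from its mRNA fraction. The methods of the study describe them as adult males and give the strain as C57BL/6 J. In 4 mice both common carotid arteries had been narrowed with wire microcoils (bilateral carotid artery stenosis, BCAS), with the narrower coil on the right side, which is the side that was sequenced. The other 4 mice had the same operation without coils (Sham). Each library came from 1 mouse, and nothing else was given to either group, so that the only contrast is BCAS against Sham. The question addressed here is how the transcripts of the excitatory postsynapse stood in cortex under lowered blood flow.

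Glutamate carries most fast excitation in the cortex. AMPA receptors, built from the Gria subunits, pass the fast current. NMDA receptors pair the obligatory subunit Grin1 with Grin2 or Grin3 subunits and admit calcium when the membrane is depolarised. Kainate receptors are built from the Grik subunits, and the metabotropic Grm receptors signal through G proteins. Under the membrane the Dlg proteins bind receptor tails, the Dlgap proteins link Dlg to Shank, and Homer links Shank to group I metabotropic receptors. The kinase Camk2a is the most abundant signalling enzyme of this density.

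The libraries held 16759364 to 21794435 counts assigned to genes, so that 3 counts, the limit that a count of 0 allows, were at most 0.179 CPM (counts for each 1000000 counts) in the smallest library. All 37 genes passed the filter on low counts, and 17136 genes were tested in all. Values below are CPM after TMM scaling, a scaling that centres the bulk of genes between libraries, and differences are log2 fold changes (BCAS over Sham) with their standard error (SE). Adjusted p-values come from the edgeR quasi-likelihood F-test, with the Benjamini-Hochberg correction taken over all 17136 genes. The median log2 fold change of all tested genes was -0.01.

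Most receptor and scaffold transcripts were lower in BCAS cortex. Of the 37 genes, 24 fell at an adjusted p under 0.05, against 12.8% of all tested genes, and 1, Homer3, rose, against 19.2% of all tested genes. The other 12 did not pass the test. The fitted log2 fold change was below 0 for 36 of the 37 and had a median of -0.53, with quartiles of -0.72 and -0.45. Scaling by library size alone raised the median of all tested genes by 0.089, and with that common shift Grik2 and Grin2c, which lay near 0, stood at 0.01 and 0.09. No gene passed a log2 fold change beyond 1 in either direction together with the adjusted p, a rule that called 1.28% of all tested genes lower and 11.0% higher. DESeq2 likewise gave 0 and limma-voom 1, and at an unadjusted p under 0.05 in edgeR 28 of the 37 were lower, against 21.4% of all tested genes, and 1 was higher, against 24.8%. In 20 genes all 4 BCAS mice lay below all 4 Sham mice, against 16.3% of all tested genes. In 1 gene, Homer3, all 4 BCAS mice lay above, against 18.5% of all tested genes. In the other 16 genes the groups overlapped.

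**Figure D1:**
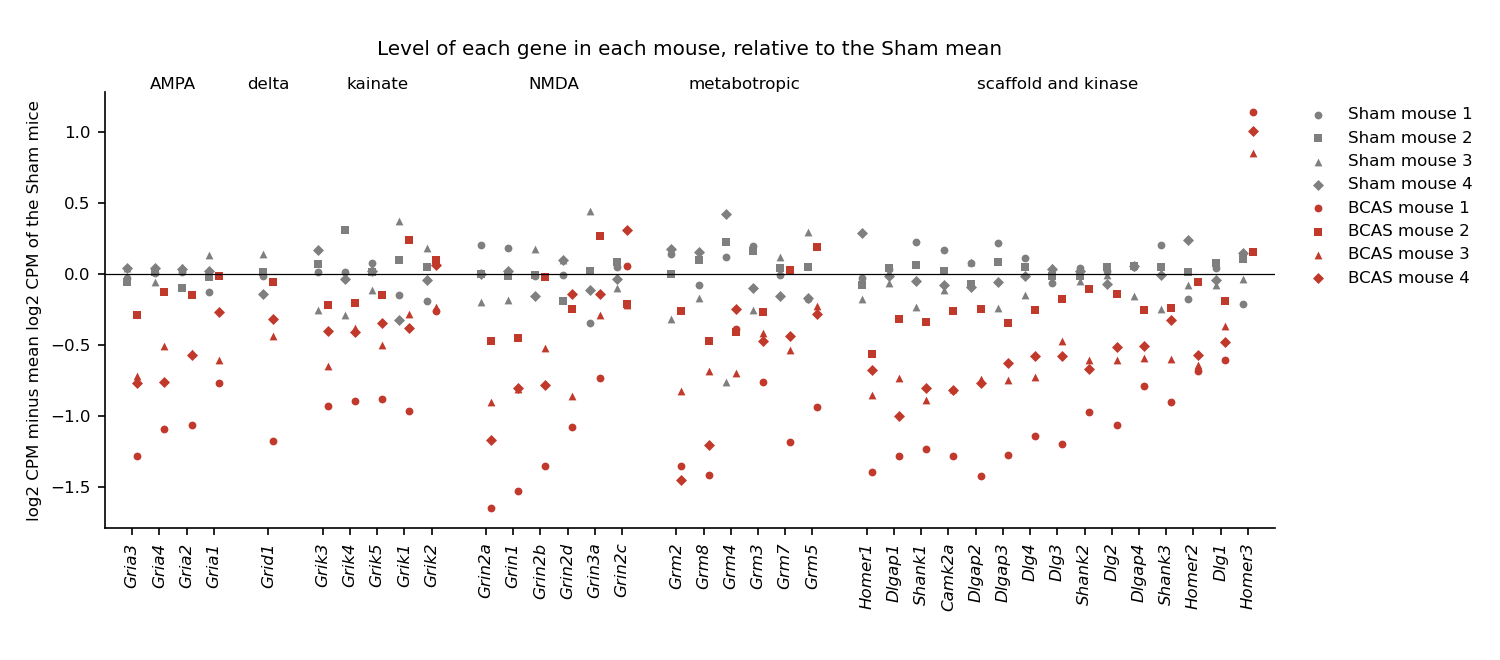
Log2 difference of each of the 37 genes from its own Sham mean in every mouse, with CPM after TMM scaling on a log2 axis, 4 Sham mice and 4 BCAS mice and 1 point per library, grouped by class. BCAS mouse 1 was the lowest BCAS mouse for 33 genes and BCAS mouse 2 the highest for 33 genes, and Homer3 lies above 0 in all 4 BCAS mice.

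The size of the difference varied among the BCAS mice in a way that the genes shared. Taking each gene against its Sham mean, the median over the 37 genes stood at 47.8% of Sham in BCAS mouse 1, 86.4% in mouse 2, 65.8% in mouse 3 and 69.9% in mouse 4. BCAS mouse 1 was the lowest of its group for 33 genes, and BCAS mouse 2 was the highest for 33 genes. Mouse 2 still lay below the lowest Sham mouse for 22 genes, against 34, 33 and 31 genes in mice 1, 3 and 4. The share of all tested genes was not taken for single mice, so these counts only compare the mice with each other. The number of genes called lower depended on single libraries, being 5, 8, 16 and 7 without Sham mouse 1, 2, 3 or 4, and 23, 30, 7 and 8 without BCAS mouse 1, 2, 3 or 4. The number of all tested genes called in either direction moved with it, from 5490 with all mice to 2549, 2723, 4145 and 2731 without Sham mouse 1, 2, 3 or 4, and to 4714, 8166, 2974 and 3198 without BCAS mouse 1, 2, 3 or 4. In each of these 8 fits all 24 genes kept a log2 fold change below 0. Grin2a, Grm8, Dlgap1, Dlgap4 and Homer1 were called in all 8.

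Transcripts of other cells moved in the same mice, and in bulk tissue fewer neurons and less RNA per neuron cannot be told apart. For the marker counts that follow, the shares of all tested genes were 12.8% that fell and 19.2% that rose. Of 13 pan-neuronal markers, 8 fell and none rose, with a median log2 fold change of -0.69. Their summed level ran from 10374 to 11700 CPM in Sham mice and from 4091 to 8971 CPM in BCAS mice. In BCAS mice 1 to 4 the median log2 difference of these markers from the Sham mean was -1.50, -0.23, -0.61 and -0.66, the same order of the extremes as for the 37 genes. Excitatory neuron markers fell in 5 of 11 and inhibitory neuron markers in 3 of 10, with medians of -0.87 and -0.53. All 10 microglia and macrophage markers rose, with a median of 3.12 and a summed level of 371 to 449 CPM in Sham mice against 1779 to 7012 CPM in BCAS mice. Of 8 astrocyte markers, 7 rose, with a summed level of 2083 to 2308 CPM in Sham mice against 3363 to 6832 CPM in BCAS mice. Of 8 markers of striatal neurons, which should be low in cortex, only 1 rose, against 19.2% of all tested genes. Their summed level was 379.9 to 677 CPM in Sham mice against 521 to 1064 CPM in BCAS mice, highest in BCAS mouse 4. Oligodendrocyte markers passed in none of 8 (median 0.20), while 4 of 6 oligodendrocyte precursor markers (median 0.55) and 3 of 8 endothelial markers (median 0.39) rose. No marker of these lists was at 0 in any library. The part that the mix of cells or of tissue had in each value below was not tested. A further fit against neuronal markers was no such test, as it only gives each gene relative to neuronal transcripts.

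**Figure D2:**
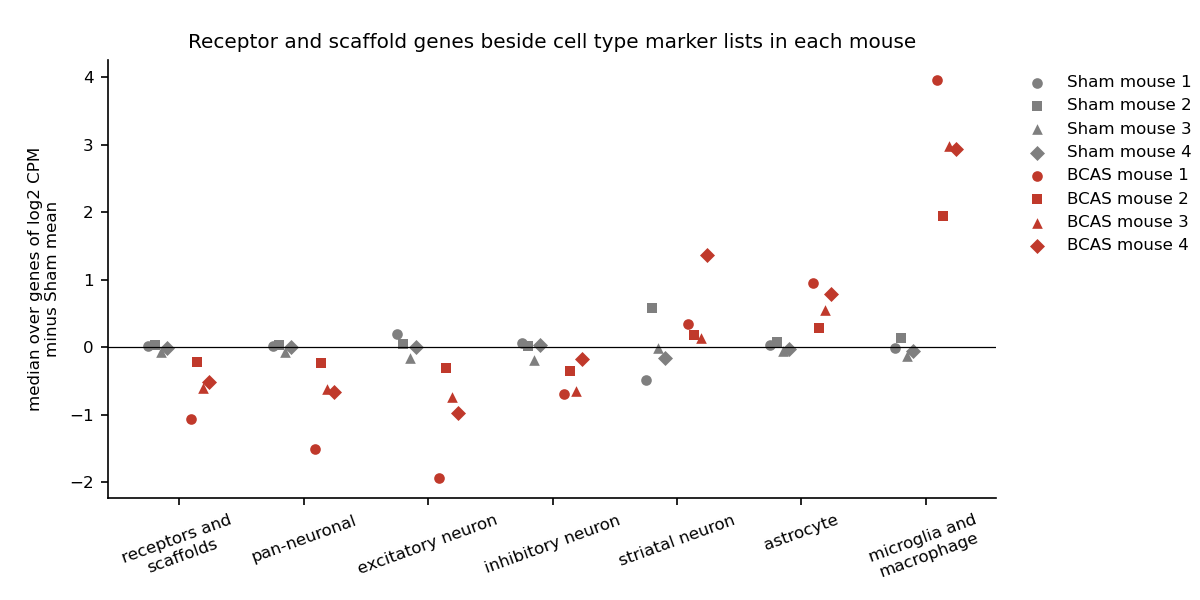
Median log2 difference from the Sham mean over the genes of each list, with 1 point per mouse, for the receptor and scaffold genes and for the cell type marker lists. The receptor and scaffold genes and the pan-neuronal markers lie below 0 in all 4 BCAS mice, and the microglia and macrophage markers lie between 1.94 and 3.96.

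For that fit the libraries were rescaled so that the geometric mean of the 13 pan-neuronal markers, none of which is among the 37 genes, was equal in every library. Under this scaling the median of all tested genes moved to 0.77, and 57.8% of them were called higher and 0.35% lower. None of the 37 genes was called lower by edgeR at an adjusted p under 0.05, and at an unadjusted p under 0.05 Grin2a alone was lower, against 0.613% of all tested genes, and 4 were higher, against 66.0%. Grik2, Grin2c, Grm5 and Homer3 were called higher. The Homer3 call held in each fit without 1 library. Grik2 was not called without Sham mouse 1, 2 or 4 or BCAS mouse 4, Grin2c not without any 1 of the Sham mice or BCAS mouse 4, and Grm5 not without Sham mouse 1, 2 or 4 or BCAS mouse 2, 3 or 4. The median of the 37 log2 fold changes was 0.16, with 11 below 0 and 26 above 0. On this scale the median of the 37 genes lay below that of all tested genes, while Grin2c (0.80) and Homer3 (1.68) lay above it.

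**Figure D3:**
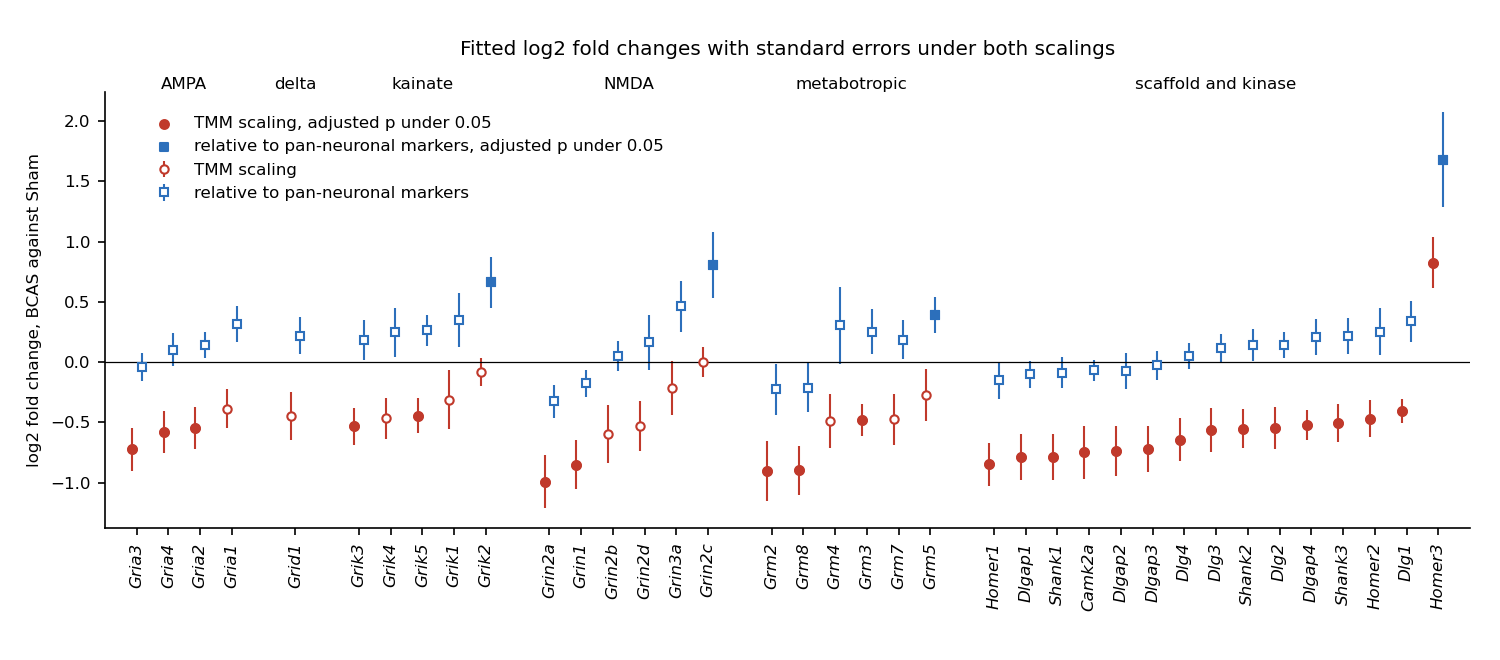
Log2 fold change, BCAS over Sham, of each of the 37 genes with its SE as the bar and filled symbols for an adjusted p under 0.05, under TMM scaling and relative to 13 pan-neuronal markers, 4 mice a group. Under TMM scaling all but Homer3 lie below 0 (Grik2 and Grin2c turn above 0 with library size alone, which shifts all genes by a median of 0.089), and relative to the neuronal markers 26 lie above 0.

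Start-site sequence is shown for Grin1 and Grm2, receptor genes that fell, and for Homer3, the gene that rose. Direction alone does not single out Grin1 or Grm2 among the genes that fell. Of the 24 genes with a window, Grm2 was the only 1 that held both RE1 parts described next. The windows are from RefSeq (GRCm38.p6), run 5′ to 3′ on the gene's strand, and hold 250 bases before the start and 50 after it. Capitals mark the GC box GGGCGG, the core TGACG of the cyclic AMP response element, and both parts of the RE1 element bound by the neuronal repressor Rest, TTCAGCACC and GGACAGC, each on either strand. They lie at chr2:25319138-25319437 (minus strand), chr9:106656060-106656359 (minus strand) and chr8:70282749-70283048 (plus strand).
Grin1: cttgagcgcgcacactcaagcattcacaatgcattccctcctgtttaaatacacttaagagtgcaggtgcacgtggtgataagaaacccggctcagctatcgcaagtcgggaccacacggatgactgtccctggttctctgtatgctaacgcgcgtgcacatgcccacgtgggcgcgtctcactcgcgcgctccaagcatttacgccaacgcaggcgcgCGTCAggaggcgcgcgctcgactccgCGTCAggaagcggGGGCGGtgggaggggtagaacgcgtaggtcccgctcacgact
Grm2: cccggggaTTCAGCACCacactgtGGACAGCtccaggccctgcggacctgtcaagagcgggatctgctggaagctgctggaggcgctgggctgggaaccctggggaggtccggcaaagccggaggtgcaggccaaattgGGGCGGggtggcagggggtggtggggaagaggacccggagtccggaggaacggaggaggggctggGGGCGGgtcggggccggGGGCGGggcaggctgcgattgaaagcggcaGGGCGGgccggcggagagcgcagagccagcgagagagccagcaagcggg
Homer3: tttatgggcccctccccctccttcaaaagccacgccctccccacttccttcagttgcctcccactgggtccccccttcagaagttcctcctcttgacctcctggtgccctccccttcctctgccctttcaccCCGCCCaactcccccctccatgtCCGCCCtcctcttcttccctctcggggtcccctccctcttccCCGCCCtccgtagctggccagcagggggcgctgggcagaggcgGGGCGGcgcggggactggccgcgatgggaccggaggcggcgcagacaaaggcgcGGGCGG
The Grin1 window holds 2 TGACG cores and 1 GC box, the Grm2 window 4 GC boxes and the Homer3 window 5 GC boxes.

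Windows were found for 24 of the 37 genes, which gave 38 windows, and the same letters were counted in 32544 distinct windows of all genes. The GC box was in 47.4% of the receptor and scaffold windows and in 35.9% of all windows. The core TGACG was in 18.4% against 20.9%, and its full palindrome TGACGTCA was in 0 of the 38 windows against 1.80%. The core is contained in that palindrome, so both counts share sites. The TATA box letters TATAAA were in 7.89% against 13.6%. Both RE1 parts on the same strand occurred in 1 of the 38 windows, that of Grm2, with 7 bases between them, and in 12 of all windows, or 0.0369%. The parts were counted in any order and at any distance, so this is not a count of whole RE1 elements. These matches describe letters in the windows and no binding was measured.

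Among the AMPA receptor subunits, 3 of 4 fell, against 12.8% of all tested genes, and the median log2 fold change was -0.56. Gria3 (chromosome X, 41400854 to 41678601 in mm10, plus strand) stood at 337, 331, 353 and 353 CPM in Sham mice 1 to 4 and at 142, 281, 209 and 202 CPM in BCAS mice 1 to 4. All BCAS mice were lower than all Sham mice, and the log2 fold change was -0.72 (SE 0.18, adjusted p = 0.019). Gria2, the subunit whose edited form keeps the channel from passing calcium, fell from 699 ± 31.2 to 478 ± 121 CPM (SD, n = 4 per group; log2 fold change -0.55, SE 0.17, edgeR adjusted p = 0.0408). Gria4 fell from 137 ± 3.97 to 91.6 ± 25.9 CPM (-0.58, SE 0.18, edgeR adjusted p = 0.0355). The groups did not overlap for either gene. Gria1, with Gria2 the main subunit of adult forebrain receptors, did not pass the test. It stood at 347, 375, 417 and 385 CPM in Sham mice and at 223, 376, 249.5 and 315 CPM in BCAS mice (log2 fold change -0.39, SE 0.16, adjusted p = 0.0912). BCAS mouse 2 was within the Sham range for this gene, and the other 3 BCAS mice were below it.

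The NMDA receptor subunits held both the lowest log2 fold change of the 37 genes and the one nearest 0. Of the 6, 2 fell, against 12.8% of all tested genes, and the median was -0.56. Grin2a (chromosome 16, 9567898 to 9995560, minus strand), the Grin2 subunit that prevails in the adult cortex together with Grin2b, stood at 243, 211, 184 and 211 CPM in Sham mice and at 67.4, 152, 113 and 94.0 CPM in BCAS mice. The BCAS mean was 50.3% of the Sham mean, all BCAS mice were below all Sham mice, and the log2 fold change was -0.99 (SE 0.22, adjusted p = 0.0127). Relative to neuronal markers it remained the lowest of the 37, at -0.33 (SE 0.14), without passing the test (edgeR adjusted p = 0.0596). Without BCAS mouse 1 it was called lower on that scale too.

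Grin1 (chromosome 2, 25291181 to 25319187, minus strand), the subunit that every NMDA receptor needs, stood at 421, 368, 328 and 377 CPM in Sham mice and at 129, 273, 212 and 214 CPM in BCAS mice. The groups did not overlap, and the log2 fold change was -0.85 (SE 0.20, adjusted p = 0.0163). Of its exon bases, 13.5% lie under the opposite-strand gene Grin1os, which stood at 7.35 ± 1.67 CPM in Sham and 6.00 ± 1.44 CPM in BCAS mice (n = 4 each). Counting took no account of strand, so reads in the shared bases cannot be assigned to either. Relative to neuronal markers the log2 fold change of Grin1 was -0.18 (SE 0.11, edgeR adjusted p = 0.191).

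Grin2c, a subunit that astrocytes also express, had the log2 fold change nearest 0 of the 6 NMDA subunits. It stood at 72.9, 74.8, 66.0 and 69.0 CPM in Sham mice and at 73.4, 61.0, 60.8 and 87.4 CPM in BCAS mice. BCAS mice 2 and 3 were below the Sham range and mouse 4 above it, and the log2 fold change was -0.00040 (SE 0.12, adjusted p = 0.998). Relative to neuronal markers it was higher by 0.80 (SE 0.28, edgeR adjusted p = 0.0329). Astrocyte markers were higher in the same mice by a median log2 difference of 0.96, 0.28, 0.55 and 0.79, and their part in the Grin2c value was not tested. Grin2b, Grin2d and Grin3a did not pass, with log2 fold changes of -0.60, -0.53 and -0.21 and edgeR adjusted p-values of 0.0846, 0.0743 and 0.48. Grin2b overlapped between groups, with 517 to 649 CPM in Sham mice and 226 to 566 CPM in BCAS mice. For Grin2d, 9.66% of the exon bases are shared with the opposite-strand gene Gm45441.

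Of the 5 kainate receptor subunits, 2 fell, against 12.8% of all tested genes, and the median log2 fold change was -0.45. Grik3 stood at 124, 129, 104 and 139 CPM in Sham mice and at 65.0, 106, 78.6 and 93.6 CPM in BCAS mice. BCAS mouse 2 lay just above the lowest Sham mouse, and the log2 fold change was -0.53 (SE 0.15, adjusted p = 0.0308). Grik5, which needs a Grik1 to Grik3 partner to form a channel, fell from 281 ± 15.5 to 206 ± 42.6 CPM (SD, n = 4 per group; -0.45, SE 0.15, edgeR adjusted p = 0.0449), with no overlap. Grik2 was the kainate subunit nearest 0. It stood at 63.6, 74.9, 82.2 and 70.4 CPM in Sham mice and at 60.4, 77.6, 61.8 and 75.6 CPM in BCAS mice, and the groups overlapped. The log2 fold change was -0.08 (SE 0.12, adjusted p = 0.611). Relative to neuronal markers Grik2 was higher by 0.66 (SE 0.21, edgeR adjusted p = 0.0264). Grik1 and Grik4 did not pass, at -0.31 (SE 0.25) and -0.47 (SE 0.17). The delta subunit Grid1, which binds cerebellins across the synapse, did not pass either, at -0.45 (SE 0.20, edgeR adjusted p = 0.112).

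Among the metabotropic receptors, 3 of 6 fell, against 12.8% of all tested genes, with a median log2 fold change of -0.48. The 3 that fell, Grm2, Grm3 and Grm8, all couple to inhibitory G proteins, as do Grm4 and Grm7, which did not pass the test. Grm8 (chromosome 6, 27275119 to 28135178, minus strand), a mainly presynaptic receptor, stood at 22.7, 25.5, 21.2 and 26.6 CPM in Sham mice and at 8.97, 17.3, 14.9 and 10.4 CPM in BCAS mice. The BCAS mean was 53.7% of the Sham mean without overlap, and the log2 fold change was -0.90 (SE 0.20, adjusted p = 0.0138). Grm2 (chromosome 9, 106643095 to 106656082, minus strand) stood at 86.1, 78.1, 62.7 and 88.0 CPM in Sham mice and at 30.6, 65.2, 44.2 and 28.6 CPM in BCAS mice. Of its exon bases, 9.60% are shared with the opposite-strand gene Gm28111, which was too low to be tested. BCAS mouse 2 exceeded the lowest Sham mouse, and the log2 fold change was -0.90 (SE 0.25, adjusted p = 0.0273). Grm3, which astrocytes also express, fell from 87.3 ± 12.8 to 62.6 ± 8.63 CPM (SD, n = 4 per group; -0.48, SE 0.13, edgeR adjusted p = 0.0273) without overlap. Grm5, a group I receptor that Homer proteins bind, stood at 216, 253, 299.6 and 218 CPM in Sham mice and at 127, 279, 209 and 201 CPM in BCAS mice. Its groups overlapped through BCAS mouse 2, and the log2 fold change was -0.27 (SE 0.22, adjusted p = 0.351). Relative to neuronal markers Grm5 was higher by 0.39 (SE 0.15, edgeR adjusted p = 0.045). Grm4 and Grm7 stood at -0.49 (SE 0.23) and -0.47 (SE 0.21).

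Of the 15 scaffold genes, 14 fell and Homer3 rose, while 10 of the 22 receptor subunits fell and none rose. Of all tested genes, 12.8% fell and 19.2% rose. The medians of the groups were -0.56 and -0.48. This difference between scaffolds and receptors was not tested, and the counts depend on single libraries as described above. All 4 Dlg genes, which encode the membrane-associated guanylate kinases that anchor receptors, fell. Dlg4, the main one of the adult density, stood at 915, 877, 765 and 836 CPM in Sham mice and at 384, 711, 512 and 566 CPM in BCAS mice, with no overlap (log2 fold change -0.64, SE 0.18, adjusted p = 0.0267). Dlg1 fell from 226 ± 11.0 to 171 ± 21.1 CPM (-0.40, SE 0.10, edgeR adjusted p = 0.02), Dlg2 from 531 ± 18.7 to 364 ± 93.2 CPM (-0.55, SE 0.17, adjusted p = 0.0404) and Dlg3 from 226 ± 8.12 to 153 ± 42.0 CPM (-0.56, SE 0.18, adjusted p = 0.044). None of the 4 overlapped between groups. Relative to neuronal markers the 15 scaffold genes, Homer3 aside, lay between -0.15, for Homer1, and 0.34, for Dlg1, and none of these passed.

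All 4 Dlgap genes, which bridge Dlg and Shank, fell without overlap between groups. Dlgap1 (chromosome 17, 69969073 to 70821413, plus strand) stood at 748, 750.4, 700.2 and 724 CPM in Sham mice and at 301, 585, 440.2 and 366 CPM in BCAS mice (log2 fold change -0.79, SE 0.19, adjusted p = 0.0165). The Sham mice lay close together and BCAS mouse 2 was the nearest to them. Dlgap2 stood at 87.9, 79.1, 88.1 and 78.1 CPM in Sham mice and at 31.0, 70.2, 49.9 and 49 CPM in BCAS mice (-0.74, SE 0.21, adjusted p = 0.0275). Dlgap3 stood at 602, 547, 437 and 496 CPM in Sham mice and at 214, 408, 309 and 334 CPM in BCAS mice (-0.72, SE 0.19, adjusted p = 0.0233). In both genes BCAS mouse 1 was lowest and BCAS mouse 2 highest of the group. Dlgap4 fell from 310.3 ± 21.8 to 216 ± 33.6 CPM (SD, n = 4 per group; -0.52, SE 0.12, edgeR adjusted p = 0.0154), with Sham mouse 3 at 278 CPM and the other Sham mice between 320.4 and 322 CPM.

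The 3 Shank genes, whose products form the deeper platform of the density, also fell. Shank1 (chromosome 7, 44310253 to 44360572, plus strand) stood at 684, 613, 498 and 566 CPM in Sham mice and at 250.2, 465, 317 and 337 CPM in BCAS mice. The groups did not overlap, and the log2 fold change was -0.79 (SE 0.19, adjusted p = 0.0167). Shank2 fell from 230.3 ± 6.25 to 157 ± 40.7 CPM (SD, n = 4 per group; -0.55, SE 0.16, edgeR adjusted p = 0.0316) without overlap. Shank3 fell from 316 ± 40.2 to 223 ± 44.1 CPM (-0.50, SE 0.16, edgeR adjusted p = 0.0393), with BCAS mouse 2 at 266 CPM against a lowest Sham value of 265 CPM. Camk2a stood at 4084, 3677, 3349 and 3442 CPM in Sham mice and at 1495, 3033, 2067 and 2059 CPM in BCAS mice, without overlap (-0.75, SE 0.22, adjusted p = 0.0311).

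The 3 Homer genes did not move together. Homer1 (chromosome 13, 93299635 to 93405129, plus strand), the main cortical member, stood at 214, 207, 193 and 267 CPM in Sham mice and at 83.4, 148, 121 and 137 CPM in BCAS mice. No BCAS mouse reached the Sham range, and the log2 fold change was -0.85 (SE 0.18), with the lowest adjusted p of the 37 genes (0.0105, edgeR). The gene-level counts do not separate its long scaffolding forms from the short activity-induced form. Homer2 fell from 94.1 ± 11.8 to 67.9 ± 14.9 CPM (SD, n = 4 per group; -0.47, SE 0.15, edgeR adjusted p = 0.0437), with BCAS mouse 2 inside the Sham range at 90.0 CPM and the other BCAS mice between 58.4 and 63.0 CPM. Of its exon bases, 4.16% are shared with the opposite-strand gene Gm44570.

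Homer3 (chromosome 8, 70282827 to 70294361, plus strand), known mainly from cerebellar Purkinje cells, stood at 6.08, 7.55, 6.86 and 7.78 CPM in Sham mice and at 15.5, 7.83, 12.7 and 14.1 CPM in BCAS mice. All BCAS mice were above all Sham mice, although mouse 2 was above the highest Sham mouse by less than the Sham spread. The log2 fold change was 0.83 (SE 0.21, adjusted p = 0.0204), and relative to neuronal markers 1.68 (SE 0.39, edgeR adjusted p = 0.0117). These levels rest on 107, 121, 120 and 129 counts in Sham mice and 352, 152, 235 and 259 counts in BCAS mice. The call did not hold without Sham mouse 1 or 2 or without BCAS mouse 3 or 4. Of the Homer3 exon bases, 25.4% lie under the opposite-strand gene Ddx49, which stood at 20.9 ± 2.22 CPM in Sham and 22.7 ± 1.17 CPM in BCAS mice (n = 4 each; log2 fold change 0.12, SE 0.10, edgeR adjusted p = 0.391). Across the BCAS mice Homer3 was highest in mouse 1 and lowest in mouse 2, and the microglia and macrophage, astrocyte, oligodendrocyte, oligodendrocyte precursor and endothelial marker lists all had these extremes. Their median log2 differences in mouse 1 and mouse 2, in the same order of lists, were 3.96 and 1.94, 0.96 and 0.28, 0.37 and -0.06, 0.82 and 0.21, and 0.75 and 0.096. Which cells carried the Homer3 transcripts was not tested.

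Subunit balance was compared within libraries, where scaling between libraries cancels. For 10 ratios of gene pairs, the difference in mean log2 count ratio was tested over the 70 arrangements of the 8 libraries with an exact two-sided permutation test, whose smallest p is 0.0286. No ratio passed after Benjamini-Hochberg adjustment over the 10, which at this size would need at least 6 ratios at the smallest p, so that a single separated ratio could not pass. Gria3 over Gria2 was -1.07, -0.98, -1.03 and -1.02 in the Sham libraries, against -1.24, -1.16, -1.19 and -1.22 in BCAS mice, on the log2 scale. These ranges did not overlap, and the difference was -0.18 (exact permutation p = 0.0286, adjusted 0.143), the smallest p the design can give. Grin2a over Grin2b differed by -0.38, Grin3a over Grin1 by 0.67 and Dlg4 over Dlg1 by -0.26 (exact permutation p = 0.0571 and adjusted 0.143 for each of the 3). The exact permutation p of the other 6 ratios ran from 0.114 to 0.6, with differences between -0.49, for Grm2 over Grm3, and 0.23, for Grin2b over Grin1.

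As shares of a class, with CPM divided by the length of the gene model in kilobases, Grin1 and Grin2a took less of the NMDA sum in all 4 BCAS mice than in any Sham mouse, and Grin2c took more in 3 of the 4. Grin1 made up 39.9 ± 2.89% of the NMDA sum in Sham and 33.2 ± 2.71% in BCAS mice, and Grin2a 12.3 ± 0.991% and 9.23 ± 1.30% (SD, n = 4 per group). Grin2c made up 14.6 ± 0.676% in Sham mice, against 32.1, 15.1, 19.3 and 26.4% in BCAS mice 1 to 4. BCAS mouse 2 was inside the Sham spread for Grin2c and the other 3 were above it. Gria3 made up 21.2 ± 0.312% of the AMPA sum in Sham and 18.4 ± 1.04% in BCAS mice, and Gria1 38.3 ± 1.65% and 42.2 ± 3.22%. The shares of a class add up to the whole, so that a larger Grin2c share lowers those of Grin1 and Grin2a. The level of Grin2c itself had a log2 fold change of -0.00040. These shares were described without a test. As CPM per kilobase of gene model in Sham mice, Camk2a was the highest of the 37 genes at 487, followed by Dlgap3 at 115, and Homer3 was the lowest at 2.06. A gene model holds all annotated exons, 17933 bases for Grin2a and 5037 for Grin2c. Shares and levels of different genes are therefore only roughly comparable.

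**Figure D4:**
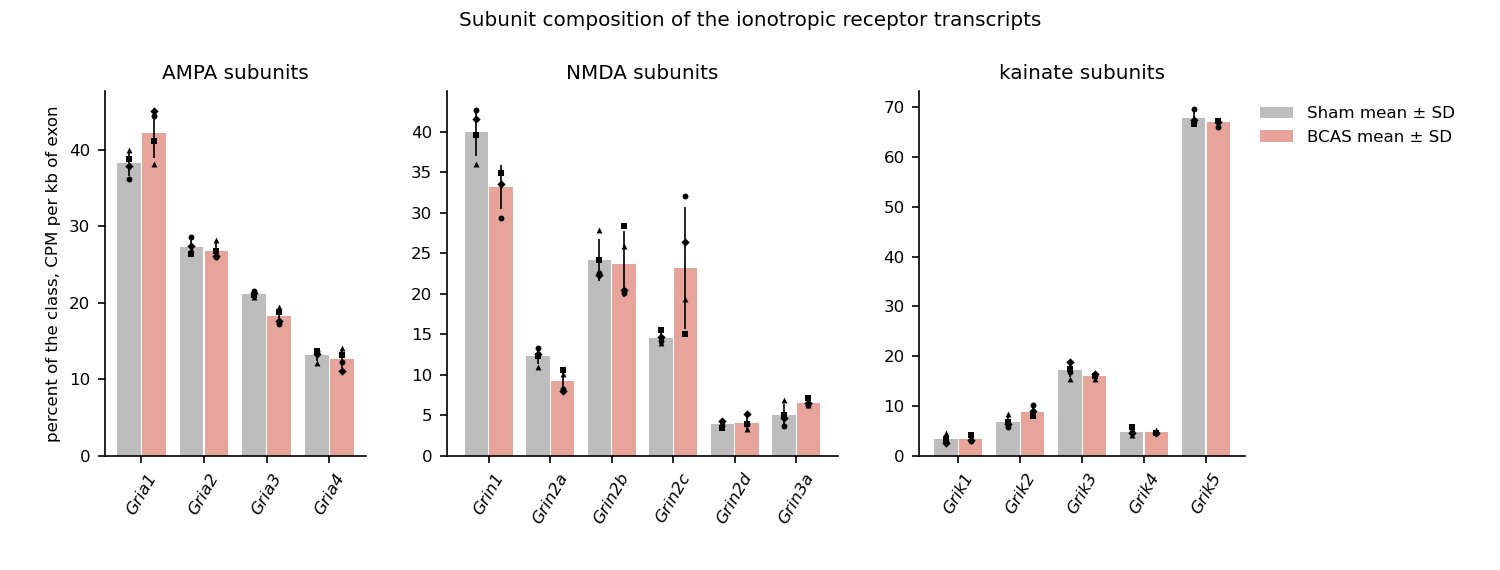
Share of each subunit in the summed CPM per kilobase of the AMPA, NMDA and kainate subunits, in percent, with bars for the mean of 4 mice a group, error bars for the SD and 1 point per mouse. Grin2c takes 32.1% in BCAS mouse 1 and 15.1% in BCAS mouse 2, the Grin1 and Gria3 bars are lower in BCAS than in Sham mice, and Grik5 holds 67.8% of the kainate sum in Sham and 66.9% in BCAS mice.

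Genes that work beside these receptors were lower in most cases where they passed the test. Of 64 genes in 4 further lists, 33 fell, against 12.8% of all tested genes, and 1 rose, against 19.2%, and their median log2 fold change was -0.49. The number that fell was 7, 8, 20 and 8 without Sham mouse 1, 2, 3 or 4, and 33, 49, 10 and 10 without BCAS mouse 1, 2, 3 or 4. With scaling to neuronal markers, 2 of the 64 were lower and 6 higher, against 0.35% and 57.8% of all tested genes, with a median of 0.18. The 2 that were lower on that scale were Rph3a at -0.45 (edgeR adjusted p = 0.0334) and Kalrn at -0.32 (edgeR adjusted p = 0.0467), the latter named after its values were seen. Of 16 auxiliary subunits, 9 fell (median -0.46), from Cacng2, which traffics AMPA receptors, at -0.93 (SE 0.24, edgeR adjusted p = 0.0207), to Neto2, an auxiliary subunit of kainate receptors, at -0.30 (SE 0.10, adjusted p = 0.0468). Of 22 signalling and adaptor genes of the density, 14 fell (median -0.62), from Rph3a at -1.12 (SE 0.24, edgeR adjusted p = 0.0119) to the AMPA receptor adaptor Grip1 at -0.41 (SE 0.13, adjusted p = 0.0386). Rph3a, a Rab-binding protein found on both sides of the synapse, went from 535 ± 91.5 to 246 ± 76.2 CPM (SD, n = 4 per group). Of 18 synaptic adhesion genes, 7 fell (median -0.47), from Cbln2, a secreted synapse organiser, at -1.23 (SE 0.24, edgeR adjusted p = 0.00803), to Lrrc4b at -0.38 (SE 0.13, adjusted p = 0.0482). Cbln2 went from 44.4 ± 13.6 to 19.0 ± 2.91 CPM.

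Of the 8 genes of glutamate transport and metabolism, 3 fell and 1 rose, with a median of -0.45. Slc17a7, the vesicular glutamate transporter of cortical excitatory terminals, fell from 1630.1 ± 60.7 to 890.5 ± 349 CPM (SD, n = 4 per group; -0.87, SE 0.26, edgeR adjusted p = 0.0342). Slc1a3, an astrocytic glutamate uptake carrier, rose from 671 ± 33.4 to 939.5 ± 155 CPM (0.49, SE 0.14, edgeR adjusted p = 0.0277). Both genes are also in a marker list, of excitatory neurons and astrocytes respectively.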

How the data were processed

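Libraries were made from mRNA purified out of total RNA of the right cortex, according to the methods of the study, and sequenced in paired-end mode, 1 library per mouse, 4 Sham and 4 BCAS. According to the methods of the study and the submitters' processing notes, the authors trimmed reads with Trim Galore, aligned them to mm10 with HISAT2, used SAMtools 1.9 and counted with featureCounts. The deposited values are raw counts per gene, with gene models in a GENCODE annotation, and the file headers name featureCounts 2.0.1 run without a strand option, where the notes name 1.6.3. Counts of the authors were used as deposited. Gene lengths in the same tables served for reads per kilobase only, computed here and not a deposited unit. Symbols were matched by gene ID from a reference table.

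Genes were kept by filterByExpr (10 counts as the minimum, 15 in total), scaled by TMM and tested with edgeR 4.0.16 in R 4.3.3 (glmQLFit, glmQLFTest, all 8 libraries, no covariate), with Benjamini-Hochberg adjustment over 17136 genes and a threshold of 0.05. The SE is the log2 fold change divided by the square root of F. A second fit scaled libraries to 13 pan-neuronal markers. Ratios used 0.5 added to each count and exact permutation tests in SciPy 1.17.1. The code was checked on simulated counts. Alternatives were other scalings, filters, limma 3.58.1, DESeq2 1.42.0, a replicate block and leaving out each library.

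The genes, gene lists and tests were chosen with earlier results of these data known. Genes with values in every library were those past a log2 fold change of 0.7 in either fit, with an adjusted p under 0.05, or the extremes of their class. Dlg4 is shown in every library too, chosen after its values were seen. From related lists the called genes with the lowest and highest log2 fold change were named. Intervals and limits from counts cover counting error only.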

Additional observations from a re-analysis of the deposited data

Results flagged for a closer look

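In groups of 4, the highest or lowest mouse was set against the other 3 by Dixon's test at the 95% level, over 94 groups of values, of which 2 were flagged. Chance flags about 1 in 20 groups, so 2 of 94 is no more than chance gives. Dlgap4 stood at 278 CPM in Sham mouse 3, against 320.4 to 322 CPM in the other 3 Sham mice. Homer2 stood at 90.0 CPM in BCAS mouse 2, against 58.4 to 63.0 CPM in the other 3 BCAS mice.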

How the results depend on the processing

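With 4 mice a group, calls depended on single libraries more than on the tool. Of the 37 genes, 17 (replicate block) to 27 (DESeq2) were called lower under the 9 alternatives that kept all mice, and 15 of the 24 in all 9. Leaving out 1 library gave 5 to 30 genes lower, 0 to 1 higher, 0 to 4 past both thresholds and a median log2 fold change of -0.67 to -0.40. It gave 0 to 1 genes lower and 1 to 4 higher relative to neuronal markers, and 7 to 49 of the 64 related genes lower. No gene passed both thresholds in the reported fit, and 1 did under upper-quartile scaling, limma-voom, limma on log2(CPM + 1) and the replicate block. Mice sharing a number were not treated as pairs in the reported fit. The correlations of their deviations ran from -0.114 to -0.0034, and those of mice with different numbers from -0.12 to 0.14. With 4 mice a group this cannot show whether a number marks a shared batch. With the replicate block 17 genes were lower, 0 higher, and 1 higher relative to neuronal markers. DESeq2 called 6902 genes of all tested and edgeR 5490, and the block 3546. With library size alone, which raised the median of all tested genes by 0.089, Grik2 turned to 0.0061 and Grin2c to 0.093. Grin2c turned to 0.018 with at least 10 counts in every library and ran from -0.12 to 0.077 when 1 library was left out. Scaling to excitatory instead of pan-neuronal markers raised all 37 genes by 0.11 to 0.17 (median 0.14), and with this common shift values near 0 changed sign: Gria3 turned to 0.089, Dlgap1 to 0.030, Dlgap2 to 0.053, Dlgap3 to 0.11, Shank1 to 0.055 and Camk2a to 0.070. Relative to pan-neuronal markers, leaving out 1 library turned Dlgap3 (range -0.084 to 0.037) with 0.037, 0.0013 and 0.0074 without Sham mouse 1, BCAS mouse 2 and BCAS mouse 3, Dlg4 (-0.010 to 0.10) without BCAS mouse 1, and Grin2b (-0.0046 to 0.14) without BCAS mouse 2. The cause of the changes on leaving out a library was not tested. Without 1 library the exact ratio tests cannot go below 0.0571.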
